A study of Oryza sativa with 9 samples.

Results

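Transposon-derived gene models were described in root RNA of 3 rice lines. A model was taken as a member where its description in the deposited files held, in any case, one of 6 phrases: transpos, retrotransposon, gag, reverse transcriptase, integrase core or hAT family. The rule found 209 of the 105692 models listed for each library. Of these, 207 are numbered models, which carry a running number in place of a gene identifier and are written here with that number, and 2 are annotated models with an OS identifier. The members were compared with the 13751 numbered models that have no transposon description.

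The series holds 9 RNA-seq libraries from roots of 7-day-old rice (Oryza sativa, cultivar Dongjin) that were grown in soil with 10 h of light and 14 h of dark. Wild type (WT), a line whose genotype is given as dgk1 KO (labelled dgk1) and a line given as dgk1 OE (labelled OE2) had 3 libraries each. DGK1 is a diacylglycerol kinase, an enzyme that turns diacylglycerol into the signalling lipid phosphatidic acid, and the study asks how it bears on root architecture. Each altered genotype is 1 line. The sources used here do not give how the knockout was made, which promoter drives the overexpression or how many plants were pooled.

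Transposons are stretches of DNA that can move or be copied within a genome. Retrotransposons use an RNA intermediate: gag proteins form the particle, reverse transcriptase copies the RNA into DNA, and integrase inserts the copy. DNA transposons, among them the En/Spm, Mutator (MULE) and hAT families, are moved by a transposase that acts on the DNA itself. Plants keep most copies silent through DNA methylation guided by small RNAs, and some transposase genes have become ordinary host genes, such as the FAR1 family of light-signalling transcription factors in Arabidopsis.

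Most of the descriptions fitted the name of the set, with 21 exceptions by their other domains. These were 16 models that pair a FAR1 DNA-binding domain with a MULE transposase domain, 2 GAGA-binding protein models that matched through the letters gag, 2 models with a NAM domain, and model 11553, a telomerase reverse transcriptase. Model 11553 had 3.02, 3.29 and 4.02 FPKM in WT, 3.11, 3.999 and 4.43 in dgk1, and 3.27, 3.44 and 4.18 in OE2, so the lines overlapped. FPKM is fragments per kilobase of model length, scaled to the depth of the library. Of the 21, 8 reached the level needed for a test, and leaving all 21 out moved no count of calls given below by more than 1.5 times.

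Depth ran from 8908397 to 12459460 fragments per library, and members took 0.363% to 0.484% of them. OS04G0634700, taken as DGK1 from background knowledge, was listed at 0 throughout. Model 25546 on the same span had 0.896, 0.738 and 0.487 FPKM in WT, 7.24, 5.60 and 9.16 in dgk1, and 0.521, 0.625 and 0.571 in OE2. These levels go against the labels of a knockout and an overexpressor, so dgk1 and OE2 below mean the libraries labelled so. The first principal component held 38.5% of the variance and set the OE2 libraries apart (60.3 to 67.1, against -39.8 to -25.2 in the other 6). The root-expressed silicon transporter gene LSI2 (OS03G0107300) stood at 197.2 to 298.5 FPKM in every library. The sum over 19 tested green-tissue genes was 226.9 to 326.2 FPKM in WT, 161.7 to 213.7 in dgk1 and 234.6 to 334.1 in OE2, so dgk1 lay lowest, while their mean log2 levels overlapped (2.51 to 3.48, 2.24 to 2.68 and 2.31 to 2.70). The part of this in the members' levels was not tested.

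Members were long and of modest level. Their median length was 3636 bases, against 1801 for the other numbered models, and 61 of them (29.2%, against 15.9%) were 1 unbroken block with no gap between start and end. No fragment was counted in any library for 26 members (12.4%), against 30.8% of the other numbered models. The mean over the 9 libraries was at least 10 FPKM for 23 members, from 1 to 10 for 102, and above 0 but under 1 for 58. A level of at least 1 FPKM in at least 3 libraries was required for a test, and 134 members (64.1%) met it, against 41% of the other numbered models. The median level of tested members was 3.27 FPKM, close to the 3.15 of the other tested numbered models, while tested annotated models had 7.8.

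The 6 members with the highest means held 23.2% of the summed level, and none of them passed the test in any comparison. Model 16181, a plant transposase of the Ptta/En/Spm family on chromosome 2 (28625318 to 28630932), was the highest. It had 44.7, 48.3 and 47.7 FPKM in WT, 47.3, 54.6 and 39.7 in dgk1, and 55.5, 49.2 and 53.8 in OE2. The dgk1 libraries covered the whole WT range, and the lowest OE2 library lay just above the highest in WT (difference in log2(FPKM + 1) 0.17 ± 0.12, SE, limma adjusted p = 0.495). Model 23382, with a GAG-pre-integrase and an integrase core domain on chromosome 4, had 33.0 ± 1.69 FPKM in WT, 38.1 ± 2.03 in dgk1 and 40.1 ± 2.37 in OE2 (SD, n = 3 throughout). Model 5514, a putative gypsy-type transposon on chromosome 1, had 33.6 ± 3.43, 31.9 ± 4.19 and 40.2 ± 7.07 FPKM. The other members of the 6 were the Mutator-type model 34016 and the integrase model 32992, both on chromosome 7, and the hAT model 9738 on chromosome 11. Their line means lay between 18.1 and 23.04 FPKM. The highest reverse transcriptase member, model 2373 on chromosome 1, spread widely within lines, with 15.07, 24.8 and 15.9 FPKM in WT, 14.3, 19.8 and 8.86 in dgk1, and 18.1, 12.9 and 22.1 in OE2. The highest FAR1 member, model 21739 on chromosome 3, stayed near 9 to 10 FPKM in each line (9.64 ± 1.99, 8.96 ± 0.764 and 10.2 ± 1.28).

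The summed level of all members was 703.7, 746.2 and 743.9 FPKM in WT, 764.0, 846.2 and 747.1 in dgk1, and 856.1, 804.9 and 867.4 in OE2. The OE2 libraries lay above the WT libraries, by 1.15 times in the means (842.8 against 731.3 FPKM), and overlapped those labelled dgk1. Single models held much of these differences from WT. Model 29015 had a mean of 46.5 FPKM in OE2 and 0 in WT. Model 32754 had 35.6 FPKM in dgk1 and 0 in WT, where the sums were 785.8 and 731.3 FPKM. The share of all fragments that fell in members did overlap between OE2 (0.383% to 0.446%) and WT (0.363% to 0.45%), and with libraries rescaled to equal totals the ratio was 1.08. RNA of whole roots was measured, so fewer cells of a type and less RNA per cell cannot be told apart.

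By class, 3 sums stood apart in 1 line. Gag members, which carry a gag protein, a GAG-pre-integrase domain or a gag protease, summed to 144.9 ± 2.96 FPKM in WT, 197.2 ± 7.11 in dgk1 and 160.1 ± 6.33 in OE2. Model 32754 alone supplied much of that: without it the dgk1 sum was 162 ± 4.92, level with OE2. The 5 transposase members of no named family summed to 7.75 ± 0.293 FPKM in WT, 7.52 ± 0.516 in dgk1 and 57.2 ± 3.36 in OE2, and without model 29015 the OE2 sum was 10.7 ± 3.06. The 5 gypsy-type members summed to 55.6 ± 6.86, 50.2 ± 12.1 and 83.8 ± 14.3 FPKM, with every OE2 library above every other. No other class had a line whose 3 libraries all lay outside the range of both other lines. Reverse transcriptase members had 160.5 ± 10.1, 159.1 ± 13.1 and 146.4 ± 8.004 FPKM, and Mutator members 113.7 ± 8.89, 122.1 ± 8.09 and 112.3 ± 1.74.

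**Figure D1:**
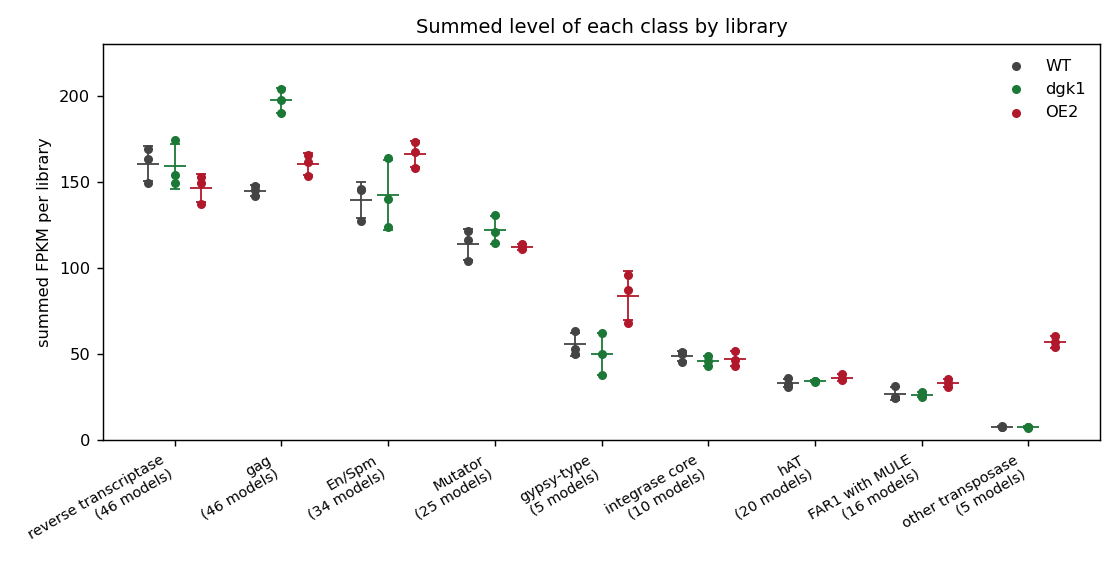
Summed FPKM of the members of each class (y axis) in each of the 9 libraries (points), with group mean and SD (bars, n = 3) for WT, dgk1 and OE2. Gag members reach 197.2 in dgk1, and transposases of no named family reach 57.2 in OE2 against under 8 in both other lines.

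Presence against absence was then read from the values. A member was called present in a line where all 3 libraries had at least 1 FPKM, and absent where all 3 were listed at 0. Presence was found for 101 members in WT, 107 in dgk1 and 113 in OE2, and 86 were present in all 3 lines. Absence was found for 51, 47 and 38 members, of which 26 were absent in all lines.

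The contrast of present and absent was found mainly with OE2 on one side. Of the 113 members present in OE2, 14 (12.4%) were absent in WT, against 2.25% for the other numbered models, 0.477% for annotated models and 1.28% for all models. In the other direction, 6 of the 101 members present in WT (5.94%) were absent in OE2, against 2.15%, 0.538% and 1.19%. Between OE2 and dgk1, 12 members present in OE2 (10.6%) were absent in dgk1, against 2.36% of other numbered models and 1.2% of all models. The reverse held for 5 members present in dgk1 (4.67%), against 2.37% and 1.25%. Between dgk1 and WT, 1 member present in dgk1 (0.935%) was absent in WT, against 0.344% and 0.291%, and 0 of those present in WT were absent in dgk1, against 0.0666% and 0.0784%. With absence read as up to 0.1 FPKM, the counts present in dgk1 were 3 for absence in WT and 8 for absence in OE2. Without WT replicate 2, 2 were present in dgk1 and absent in WT. No test was run on these shares, since the members were chosen with results of these data known.

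**Figure D2:**
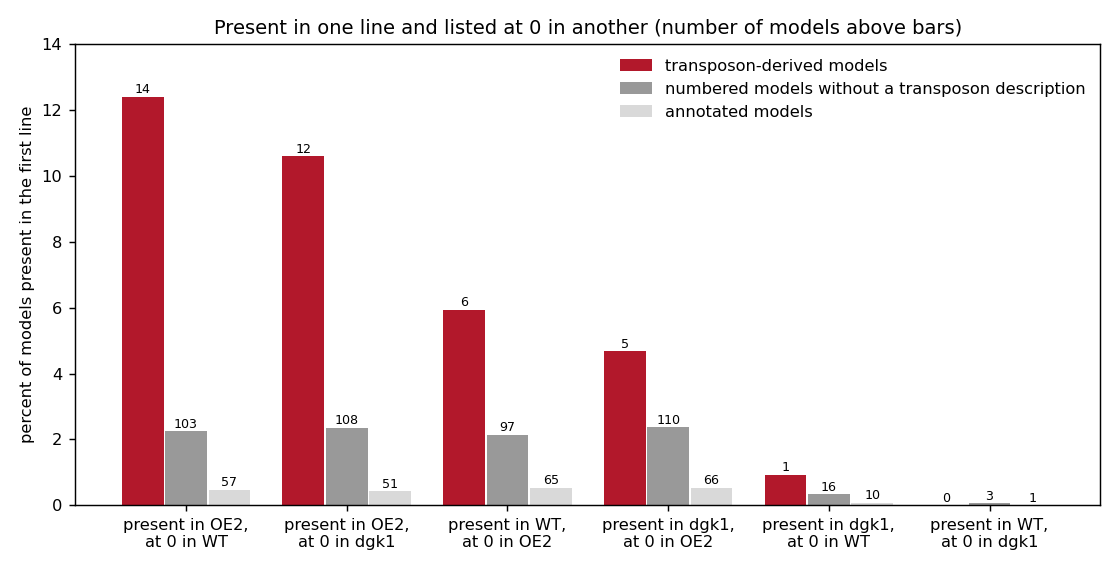
Models present in the first line (at least 1 FPKM in all 3 libraries) and listed at 0 in all 3 libraries of the second, as a percentage of models present in the first (y axis), for 209 members, other numbered models and annotated models, with the number of models above each bar. The members' bars are 12.4% for OE2 against WT and 0.935% for dgk1 against WT.

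Of the 14 members present in OE2 and absent in WT, 12 were absent in dgk1 as well. The other two, model 34389 (integrase core, chromosome 7) and model 27497 (reverse transcriptase, chromosome 5), had at most 0.0355 FPKM in a dgk1 library. By class, 6 of the 14 were En/Spm members, 2 gypsy-type, 2 integrase core, and 1 each reverse transcriptase, hAT, FAR1 with MULE, and transposase of no named family. None was a gag member, whereas 4 of the 6 members present in WT and absent in OE2 were. None of these 20 members was present in one of WT and dgk1 and absent in the other. The 5 members present in WT and dgk1 and absent in OE2 were models 31238, 539, 30931, 31011 and 23880, and the sixth, model 157, was uneven in dgk1. Model 157 had 4.73, 1.17 and 4.34 FPKM in WT, 0.241, 0.623 and 10.7 in dgk1, and 0 in OE2, and did not pass the test (adjusted p = 0.188).

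For OE2 against WT, 38 of the 134 tested members passed the test (28.4%), of which 25 were higher in OE2 and 13 lower. The test was limma on log2(FPKM + 1) over all 22383 tested models, two-sided, with a Benjamini-Hochberg adjusted p under 0.05. Among all tested models 6.96% passed (3.71% higher, 3.24% lower), and among the other numbered models 9.99% (5.66% higher, 4.33% lower). The median difference over tested members was 0.0955 on the log2 scale, against 0.00536 over all tested models. The filter bears on these shares: 18 of the tested members, against 358 of all tested models, reached 1 FPKM in OE2 libraries alone, which fixed their direction. Among the 114 members that reached 1 FPKM in at least 2 lines, 7 were higher and 13 lower (6.14% and 11.4%), against 2.27% and 3.23% of all such models. The 114 keep members that reached 1 FPKM in WT and dgk1 but not in OE2, such as models 31238, 40553 and 539. Rises and falls are thus not treated alike in this set.

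**Figure D3:**
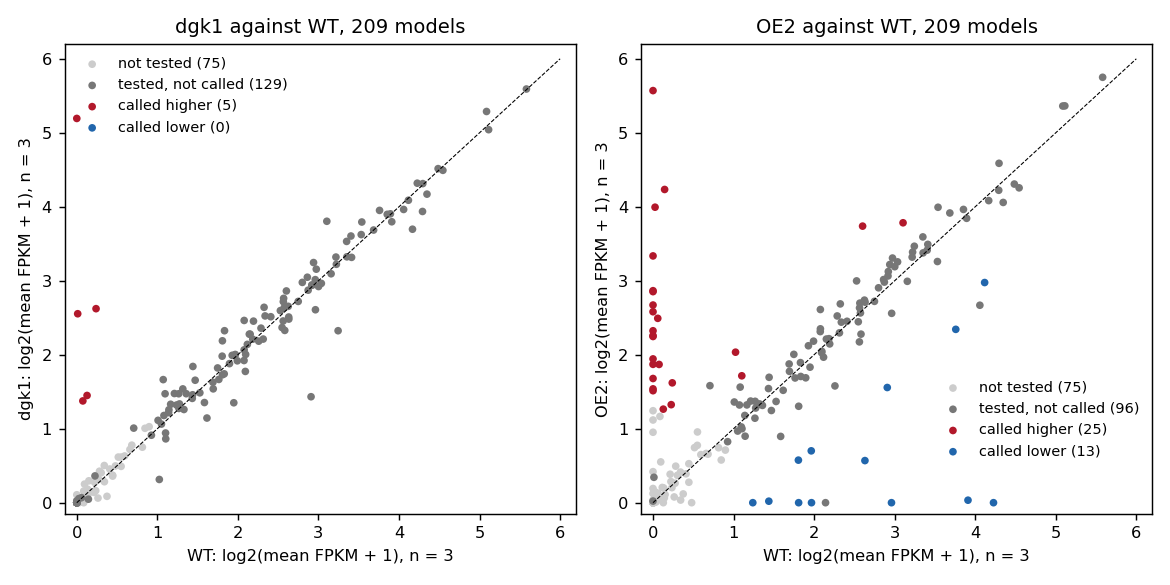
Mean level of each of the 209 members, as log2(mean FPKM + 1) over 3 libraries, in dgk1 (left, y axis) and OE2 (right, y axis) against WT (x axis), with equality as a dashed line. Members called higher are red (5 in dgk1, 25 in OE2), those called lower blue (0 and 13), and many of the OE2 calls lie on an axis, at or near 0 in 1 line.

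DNA transposon classes supplied 15 of these calls, 12 higher and 3 lower among 48 tested, and 11 of the 12 had reached 1 FPKM in OE2 alone. By fitted log2 difference, the largest rise among members in this comparison was that of model 29015, described as a transposase, on chromosome 5 (27921109 to 27927217). It had no fragment in the 6 libraries of WT and dgk1, and 49.0, 43.6 and 46.9 FPKM in OE2 from 6627 fragments. Against a floor of 3 fragments over the 3 WT libraries it was at least 2572-fold higher (fitted difference 5.57 ± 0.11, adjusted p = 2.03e-08; a fitted value against 0 depends on the pseudocount). Among all members in OE2, model 16181 alone was higher in the mean (52.8 ± 3.25 FPKM). Model 14664, with a MULE and a MuDR transposase domain on chromosome 2 (16153170 to 16159972), had 0, 0.0531 and 0 FPKM in WT, 0.0437, 0.0509 and 0.0226 in dgk1, and 14.2, 15.3 and 15.3 in OE2. The rise was 3.97 ± 0.12 on the log2 scale (adjusted p = 1.41e-07). Models 29015 and 14664 both reached 1 FPKM in OE2 alone, so the filter fixed their direction and the lack of overlap with WT.

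En/Spm members, which include the tnp2 transposases and the transposase-associated domain, had 7 rises and 2 falls among 21 tested. All 7 risers reached 1 FPKM in OE2 alone, so the filter fixed their direction. Model 6501, with a tnp2 and a transposase-associated domain on chromosome 10, stood at 0 in both other lines and had 6.32, 7.07 and 5.28 FPKM in OE2, at least 115-fold above WT (adjusted p = 6.49e-06). Another 5 En/Spm members, named after their values were seen, had the same arrangement at lower levels: models 27196, 11290, 6497, 19955 and 11735, with OE2 means from 1.905 to 4.98 FPKM. The seventh, model 11623 on chromosome 12, carries tnp2 with a transposase-associated domain and had 4.36, 4.93 and 4.58 FPKM in OE2 against at most 0.0695 in any other library. Model 2113, a plant transposon protein on chromosome 1 in no named family, also rose, with 1.03 ± 0.553 FPKM in WT, 0.243 ± 0.229 in dgk1 and 3.10 ± 0.898 in OE2 (adjusted p = 0.0493). Short models stood among the En/Spm rises: model 19955 spans 16684751 to 16685085 on chromosome 3, and holds the transposase-associated domain alone.

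In the other direction, model 25100, a tnp2 transposase on chromosome 4 (29675692 to 29681076), had 16.2, 16.9 and 15.9 FPKM in WT, 14.3, 16.5 and 17.2 in dgk1, and 6.27, 7.57 and 6.75 in OE2. It remained well above 0 in OE2, a fall of -1.14 ± 0.11 on the log2 scale (adjusted p = 0.000319). Model 31238, with MuDR and MULE transposase domains and a SWIM zinc finger on chromosome 6 (19231191 to 19234846), did not: it had 16.7, 16.8 and 19.7 FPKM in WT, 18.9, 21.2 and 16.8 in dgk1, and 0 in all OE2 libraries. That is at least 555-fold lower in OE2 than in WT, from 1968 fragments to 0 (fitted difference -4.22 ± 0.13, adjusted p = 1.67e-07). It was the largest fall among members in this comparison on the log2(FPKM + 1) scale. The third fall, model 30931 on chromosome 6, went from 2.501 ± 0.298 FPKM in WT and 3.56 ± 0.177 in dgk1 to 0 in OE2 (adjusted p = 2.79e-05).

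Both hAT members that passed the test were higher in OE2, and both reached 1 FPKM in OE2 alone, so the filter fixed their direction. Model 7703 on chromosome 10 stood at 0 outside OE2 and had 2.92, 2.61 and 2.44 FPKM there (adjusted p = 0.00022). OS12G0262100, 1 of the 2 annotated members, has a hAT dimerisation domain, through which such transposases pair. It rose from 0.169, 0.0929 and 0.247 FPKM in WT to 1.16, 1.86 and 1.496 in OE2, with 0.153, 0.267 and 0.435 in dgk1 (difference from WT 1.09, adjusted p = 0.0125). Among members with the FAR1 and MULE domains, 1 of 7 tested was called: model 27661 on chromosome 5 (17786187 to 17792572), listed at 0 in WT and dgk1 and at 5.49, 5.33 and 5.29 FPKM in OE2, at least 216-fold above WT (adjusted p = 5.86e-06). This model too reached 1 FPKM in OE2 alone. Its span overlaps the annotated model OS05G0370100, and 8 of the 16 tested models within 100 kb of it were also called higher in OE2.

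Retroelement classes, with the telomerase left out, supplied 22 calls, 12 higher and 10 lower among 78 tested, and 6 of the 12 had reached 1 FPKM in OE2 alone. Model 30209, a gag polypeptide of the LTR copia type on chromosome 6 (5890769 to 5905335), had 0.141, 0.139 and 0.0352 FPKM in WT, 0.0381, 0.0222 and 0.0395 in dgk1, and 18.2, 16.8 and 18.4 in OE2. No library of the other lines came near the OE2 values (difference from WT 4.09 ± 0.12, adjusted p = 1.38e-07). Its span of 14567 bases takes in 4 annotated models, whose reads may be counted with it. All 3 gypsy-type members that were called rose, and all lie on chromosome 9. Models 39275 and 38748 reached 1 FPKM in OE2 alone, as did model 30209, so the filter fixed their direction. Model 39275 was listed at 0 in WT and dgk1 and had 7.79, 9.68 and 9.81 FPKM in OE2 (at least 151-fold, adjusted p = 1.39e-06). Model 38748 was likewise at 0 and had 6.02, 6.62 and 6.22 FPKM in OE2 (at least 148-fold, adjusted p = 3.12e-06). Model 38768 was expressed in every line, with 5.08, 6.01 and 4.12 FPKM in WT, 7.08, 7.69 and 4.04 in dgk1, and 13.95, 9.05 and 14.03 in OE2. All OE2 libraries exceeded all WT libraries (difference 1.12 ± 0.25, adjusted p = 0.0319), but the call was lost in 6 alternatives, with adjusted p up to 0.117 without OE2 replicate 3.

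Falls among retroelements led with model 40553 on chromosome 9 (22575988 to 22591447), which holds reverse transcriptase and integrase core domains. It had 12.7, 15.3 and 14.2 FPKM in WT, 12.4, 13.9 and 12.4 in dgk1, and 0.0419, 0.0148 and 0.0143 in OE2, where 10 fragments were counted against 6882 in WT. The difference was -3.87 ± 0.12 on the log2 scale (adjusted p = 1.76e-07). Model 539, a copia-type gag polypeptide on chromosome 1 (3147186 to 3151921), had 6.72, 6.56 and 7.07 FPKM in WT, 7.96, 6.10 and 7.19 in dgk1, and 0 in OE2, at least 192-fold lower than in WT (adjusted p = 1.64e-06). Model 30976, an integrase core model on chromosome 6, had 3.69, 6.95 and 4.93 FPKM in WT, 4.20, 5.002 and 4.88 in dgk1, and 0.582, 0.239 and 0.63 in OE2 (adjusted p = 0.000375). In these 3 the WT and dgk1 libraries overlapped and the OE2 libraries stood below both.

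The remaining falls were less even. Model 39421, a copia-type gag polypeptide on chromosome 9, had 16.7, 9.07 and 11.8 FPKM in WT, 9.83, 15.7 and 17.8 in dgk1, and 1.96, 5.96 and 4.29 in OE2 (adjusted p = 0.0459). Its call against WT was lost in 8 alternatives, with adjusted p up to 0.134 without WT replicate 1. Model 20202, a reverse transcriptase model on chromosome 3, was low in both altered lines, with 5.02, 6.83 and 7.66 FPKM in WT, 1.01, 2.33 and 1.76 in dgk1, and 2.66, 1.01 and 2.15 in OE2. Against WT the difference was -1.38 ± 0.28 in OE2 (adjusted p = 0.0189, up to 0.075 without WT replicate 3) and -1.49 ± 0.28 in dgk1 (adjusted p = 0.0656).

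The other retroelement calls in OE2 against WT were of lower level and are named after their values were seen. The integrase core models 31175 and 34389 and the reverse transcriptase model 27497 rose from 0 in WT to 2.20 ± 0.952, 3.74 ± 0.159 and 1.86 ± 0.217 FPKM. Each of these risers reached 1 FPKM in OE2 alone, so the filter fixed its direction. Model 8577, an aspartyl protease of a gag polyprotein on chromosome 11, rose from 1.15 to 2.28 FPKM (adjusted p = 0.0408). The gag models 31011 and 23880 fell from 2.91 and 1.36 FPKM to 0, and the gag model 11370 from 1.71 to 0.0141 FPKM. The integrase core model 31082 fell from 2.90 to 0.625 FPKM and model 6625, with a zinc-binding domain of reverse transcriptases, from 2.49 to 0.49 FPKM. In each of these the OE2 libraries lay apart from the WT libraries.

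**Figure D4:**
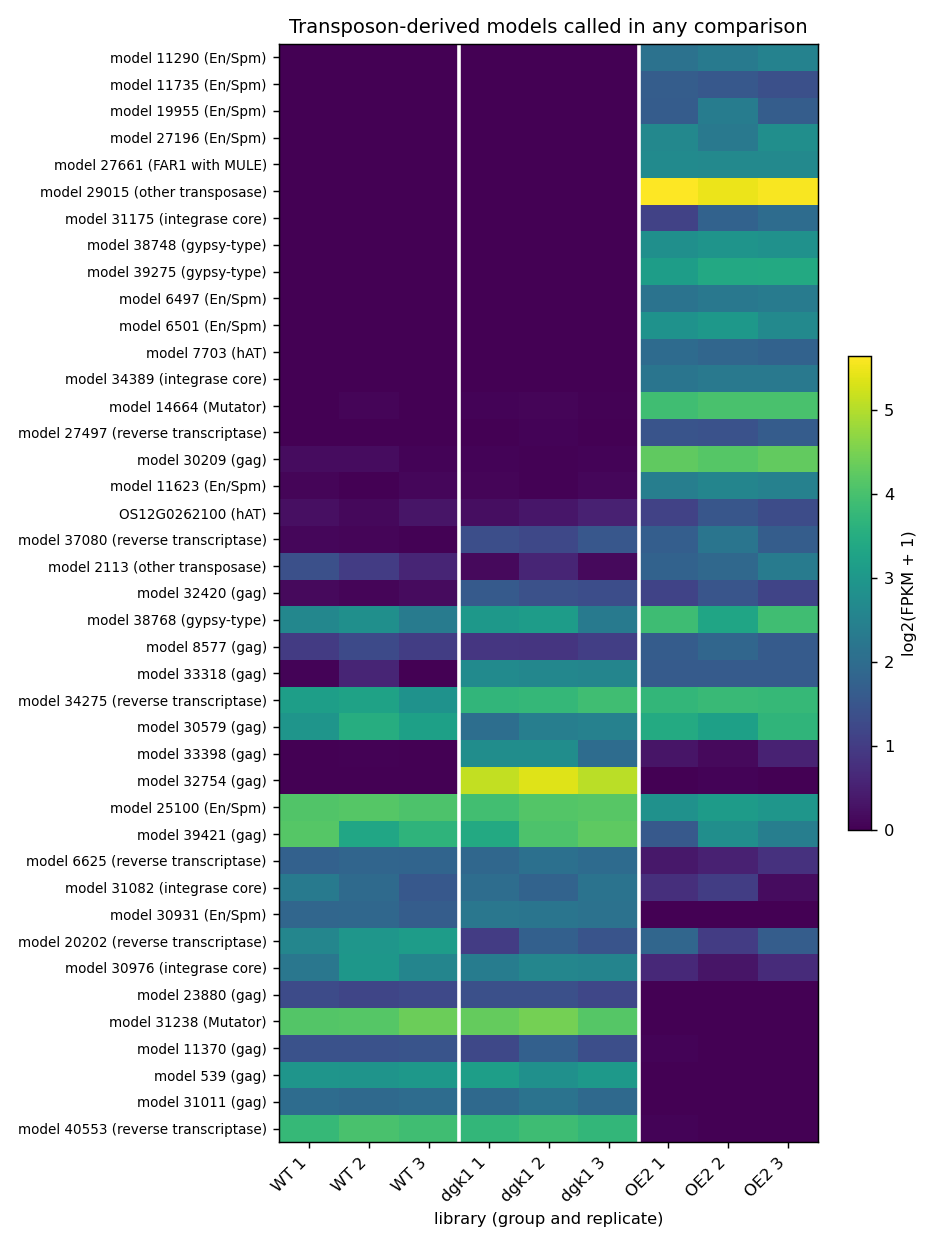
Level of each of the 41 members called in at least 1 comparison (rows, with class), as log2(FPKM + 1) by colour, in each of the 9 libraries (columns). The upper block is dark in WT and dgk1 and bright in OE2, the lower block the reverse, and model 32754 is bright in the 3 dgk1 libraries.

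For dgk1 against WT, 5 of 134 tested members passed the test (3.73%), all higher in dgk1. Among all tested models 0.675% passed (0.532% higher, 0.143% lower), and among the other numbered models 1.1% (0.905% higher, 0.195% lower). Models 32754 and 33398 reached 1 FPKM in dgk1 alone, so the filter fixed their direction. Among the 114 members that reached 1 FPKM in at least 2 lines, 3 passed (2.63%), against 0.483% of all such models. These 3, models 33318, 37080 and 32420, did not reach 1 FPKM in any WT library. No tested member was called lower with limma, while 14 had an unadjusted p under 0.05, 5 of them lower. The median difference was 0.0108 over tested members and -0.00587 over all tested models. Of the 5, 4 are gag-class models and 1 a reverse transcriptase model. Of the 48 tested DNA transposon members 0 passed, which lies near the 0.675% over all tested models. Without dgk1 replicate 1, and likewise without dgk1 replicate 2, 3 members were called.

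Model 32754, a retrotransposon gag protein on chromosome 7 (587338 to 594514), differed most. It had no fragment in the 3 WT libraries, 8959 fragments in dgk1 and 3 in OE2, and was at least 2750-fold higher in dgk1 than in WT. Its level in dgk1, 35.6 ± 4.34 FPKM, placed it among the most abundant members. Of the 19 other models tested within 100 kb of it, 1 was called higher in dgk1. Model 33318 on chromosome 7 (5193995 to 5200471) carries reverse transcriptase, GAG-pre-integrase and integrase core domains. It had 0.0373, 0.492 and 0.0116 FPKM in WT, 5.46, 5.10 and 4.91 in dgk1, and 2.06, 2.08 and 2.08 in OE2. The dgk1 and OE2 libraries lay above all WT libraries and did not overlap each other: it was higher in dgk1 (2.41 ± 0.17, adjusted p = 0.000311) and in OE2 (1.40 ± 0.17, adjusted p = 0.000971) than in WT. OE2 was lower than dgk1 (-1.002, adjusted p = 0.0073), a call that was lost with a pseudocount of 0.1 FPKM (adjusted p = 0.267).

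The other three were lower in level and are named after their values were seen. Model 33398, a GAG-pre-integrase and integrase core model on chromosome 7, had 0, 0.0235 and 0 FPKM in WT, 5.76, 5.85 and 3.003 in dgk1, and 0.254, 0.108 and 0.444 in OE2 (dgk1 against WT 2.5, adjusted p = 0.00189). Model 37080 on chromosome 8 has a zinc-binding domain found in reverse transcriptases, and had 0.0751, 0.0619 and 0.0235 FPKM in WT, 1.58, 1.33 and 1.87 in dgk1, and 2.21, 3.58 and 2.17 in OE2. It passed the test in both lines against WT (adjusted p = 0.0192 and 0.000389). Model 32420, with copia-type gag and integrase core domains on chromosome 6, had 0.106, 0.0523 and 0.119 FPKM in WT, 2.01, 1.65 and 1.53 in dgk1, and 1.19, 1.80 and 1.22 in OE2 (adjusted p = 0.0116 and 0.00361). Models 33318, 37080 and 32420 were thus called higher in both altered lines, comparisons that share the 3 WT libraries. Model 34275, a reverse transcriptase model on chromosome 7, had 7.99, 8.51 and 6.30 FPKM in WT, 12.2, 12.6 and 14.1 in dgk1, and 12.4, 13.3 and 12.7 in OE2. It passed in OE2 (adjusted p = 0.013) and not in dgk1 (adjusted p = 0.0605), although both lines lay above every WT library.

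Directly between the altered lines, 36 members passed the test (26.9%), 21 higher (15.7%) and 15 lower (11.2%) in OE2. Among all tested models 6.36% passed (3.2% higher, 3.15% lower), and among the other numbered models 9.76% (5.09% higher, 4.67% lower). Here too, the 18 members that reached 1 FPKM in OE2 alone had to be higher. Among the 114 that reached 1 FPKM in at least 2 lines, 3 were higher and 13 lower (2.63% and 11.4%), against 1.76% and 2.99% of all such models. This set keeps members that reached 1 FPKM in WT and dgk1 but not in OE2, so rises and falls cannot be weighed against each other in it. Of the members called, 32 had the same direction of call in OE2 against WT and against dgk1, and the 2 comparisons share the OE2 libraries. Model 30579, a copia-type gag polypeptide on chromosome 6, passed in this comparison alone, with 8.47 ± 1.93 FPKM in WT, 4.01 ± 0.806 in dgk1 and 10.1 ± 1.83 in OE2. Its 3 dgk1 libraries were the lowest of the 9, and the OE2 libraries lay above them by 1.14 on the log2 scale (adjusted p = 0.0101).

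Few members held all the main parts of a retroelement. A gag protein, reverse transcriptase and integrase core domains occurred together in 9 members, of which 2, models 39809 and 14386, were tested and neither was called. Their summed level was 5.38 ± 0.666 FPKM in WT, 5.80 ± 0.143 in dgk1 and 5.93 ± 0.554 in OE2. Copia-type domains occurred in 43 members, with 4 higher and 4 lower in OE2 against WT among 34 tested. Over all tested members 18.7% were higher and 9.7% lower, and over all tested models 3.71% and 3.24%. Within lines, the 86 members present in all 3 had a median coefficient of variation of 15.3% in WT, 12.7% in dgk1 and 12.8% in OE2, against 17.9%, 13.9% and 15.2% for other numbered models present in all 3.

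The members called in OE2 against WT lie on all 12 chromosomes. On chromosome 6, 8 of 14 tested members were called, against 13% of all models tested there. On chromosome 9 it was 5 of 7, against 6.15%, on chromosome 12 it was 5 of 8, against 13.8%, and on chromosome 5 it was 4 of 10, against 5.41%. The filter bears on these shares too, since 18 of the tested members reached 1 FPKM in OE2 alone, which fixed their direction. All members called on chromosome 5 are among them, and so are models 11623, 11290, 11735 and OS12G0262100 on chromosome 12. Models 39275 and 38748 on chromosome 9 and models 30209 and 31175 on chromosome 6 are as well. On chromosome 11, where 18.2% of all tested models were called, 1 of 7 members was. All 5 falls on chromosome 6 (models 30931, 30976, 31011, 31082 and 31238) lie between 14613612 and 19234846, a stretch chosen after seeing them. In that stretch 53 of 157 tested models that are no members were called as well (33.8%). In dgk1, 3 of the 5 rises lie on chromosome 7, where 0.638% of all tested models were called. Of these, models 32754 and 33398 reached 1 FPKM in dgk1 alone, so the filter fixed their direction.

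**Figure D5:**
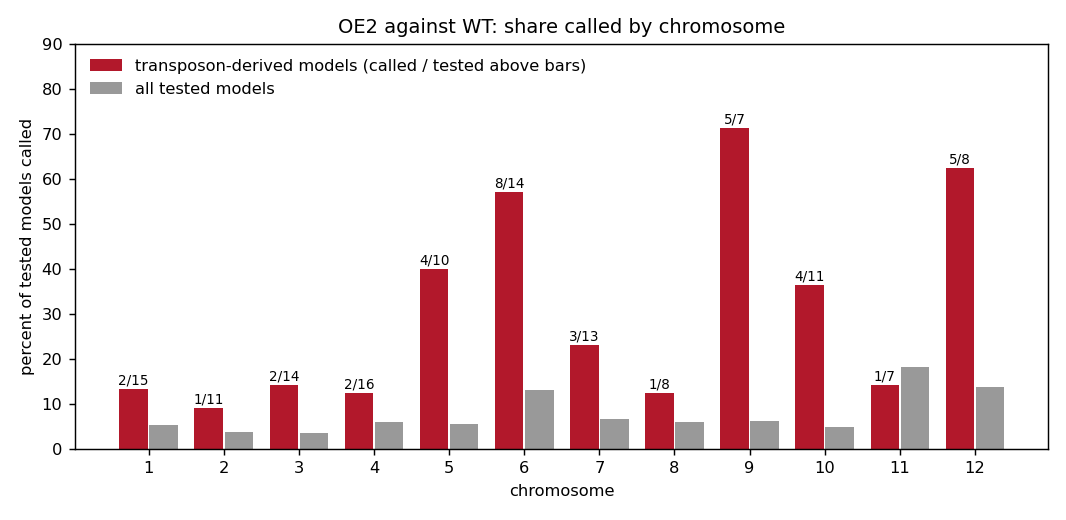
Percentage of tested models called in OE2 against WT (y axis) on each of the 12 chromosomes (x axis), for members (red, called and tested numbers above bars) and for all tested models (grey). Members reach 5 of 7 on chromosome 9 and 8 of 14 on chromosome 6, and lie under the grey bar on chromosome 11 alone. The red bars include the members that reached 1 FPKM in OE2 alone, whose direction the filter fixed.

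Models near the called members were counted as well. Within 100 kb of the 38 members called in OE2 against WT, 71 of 414 tested models were called (17.1%), and 26 of the 38 members had at least 1 such neighbour. Around the 96 tested members that were not called it was 58 of 1259 (4.61%), and among all tested models 6.96% were called. Neighbours of members called higher were called higher 29 times and lower 15 times, and neighbours of members called lower were called higher 7 times and lower 20 times. The neighbours include models whose span overlaps the member, so the same reads may be counted in both. A neighbour can count for more than 1 member, and no test was run. In dgk1, 1 of 82 tested models near the 5 called members passed (1.22%). Their part in the members' calls was not tested.

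A list of genes of transposon silencing and DNA methylation was set beside the members. It held 47 models matched by description, among them argonautes, dicers, RNA-dependent RNA polymerases and DNA methyltransferases. It also holds Demeter models, whose family removes DNA methylation and so acts against silencing. Of these, 12 were at 0 and 21 were tested. In dgk1 against WT, 0 passed limma's test and 2 had an unadjusted p under 0.05, where 0.675% of all tested models passed. In OE2 against WT, 1 was lower, 0 were higher and 5 had an unadjusted p under 0.05, where 6.96% of all passed. In OE2 against dgk1, 1 was higher and 1 lower, where 6.36% of all passed. With 21 models tested, these counts lie near the shares over all models. The summed level was 258.1 ± 13.5 FPKM in WT, 261.2 ± 9.70 in dgk1 and 257.7 ± 21.4 in OE2.

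The model that fell in OE2 was model 31035, with a SAWADEE domain, which in Arabidopsis SHH proteins reads histone marks for RNA-directed DNA methylation. It had 2.52, 4.09 and 4.56 FPKM in WT, 2.26, 3.63 and 2.73 in dgk1, and 0.198, 0.07 and 0.0678 in OE2 (difference from WT -2.06 ± 0.21, adjusted p = 0.000328; from dgk1, adjusted p = 0.000809). It lies on chromosome 6 at 16470714 to 16481761, inside the stretch that holds the 5 falls. Model 23389 on chromosome 4, described by an RRM domain of Demeter, a DNA demethylase, had 3.19 ± 1.04 FPKM in WT, 1.02 ± 0.0687 in dgk1 and 4.77 ± 0.337 in OE2. It was higher in OE2 than in dgk1 (1.51, adjusted p = 0.00136), and its difference between dgk1 and WT did not pass (adjusted p = 0.0672). A second list, of 9 FAR1 and SLEEPER models outside the members, had 5 tested. In it 1 was called, model 36678 on chromosome 8, a FAR1 DNA-binding model higher in dgk1 than in WT (adjusted p = 0.0221). In that comparison 0.675% of all tested models passed. Its level was 8.12 ± 1.60 FPKM in WT, 23.6 ± 3.43 in dgk1 and 13.1 ± 3.37 in OE2, and neither comparison with OE2 was called.

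Of the 41 members called in any comparison, 9 overlap an annotated model and 0 overlap another member. Over all 209 members, 110 overlap an annotated model and 22 overlap another member. How reads that fit several near-identical transposon copies were counted, and whether counting used strand, are details that the sources used here do not give. A member's level may therefore include reads of other copies or of overlapping models.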

How the data were processed

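Each library was deposited as a table of gene models with a value, coordinates and the model length in bases, per the file headers. The submitters' processing notes name CASAVA 1.8 and HISAT2. Coordinates are as the files list them, since the genome build, the annotation, the counting tool and the making of the numbered models are details the sources used here do not give. No header names the unit. The deposited values were taken as FPKM, because multiplying each by its model's length gave whole multiples of 1 fragment for 100% of values in each library, within a tolerance of 0.01. The authors' values already carry a median-of-ratios scaling: the implied depth was that size factor multiplied by the geometric mean of all library totals.

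From these values, limma 3.58.1 (R 4.3.3, statmod 1.5.0), with an intensity trend and robust variance, was run on log2(FPKM + 1) in 1 fit of 9 libraries and 3 groups. Models entered with 1 FPKM or more in at least 3 libraries. The log2 scale with a pseudocount understates changes of low models. Folds against 0 use a floor of 3 fragments over the 3 libraries, which covers counting error only. Groups follow the labels, and the 3 libraries of a line are called biological repetitions there. Replicates differed by more than sampling noise (chi-square per degree of freedom 5.53 to 21.3), so all 9 were counted. Same-numbered libraries did not deviate together (correlations -0.161 to 0.0635), so numbers were not taken as pairs. The test was checked on simulated data.

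Members and gene lists were chosen with earlier results of these data known. The members named by rule are the 6 highest and the highest of each class. They also take in up to 8 called rises and falls per comparison with at least 5 FPKM and no overlap between groups. Those present in 1 line and at 0 in another at 5 FPKM or more were added. Others were named after their values were seen, among them models 2113, 11623, 30931, 7703, 34275, 157 and OS12G0262100. Single calls were followed through the alternatives for the members named by rule. Alternatives were other filters and pseudocounts, equal totals, the 6 libraries of a comparison, the replicate block, other limits for presence and absence, and each library left out.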

Additional observations from a re-analysis of the deposited data

How the results depend on the processing

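No result changed direction, and 144 of 156 alternatives to the counts and sums of members stayed on the same side of their limits. Of 34 calls of named members, 29 held in every alternative run, 5 were lost in at least 1, and 0 of 44 results without a call gained one. A filter of 5 FPKM left 57 members to test. Under it the members called fell to 1 higher in dgk1, 9 higher and 6 lower in OE2 against WT, and 8 higher and 6 lower in OE2 against dgk1, with fewer models tested. With the replicate number as a block, members called higher in dgk1 numbered 3; those in OE2 against WT were 21 higher and 11 lower. With absence read as up to 0.1 FPKM, members present in dgk1 and absent in WT numbered 3, and those present in dgk1 and absent in OE2 numbered 8. Rescaled to equal totals, the summed level of OE2 over WT was 1.08. Leaving out each library in turn gave 3 to 4 members called higher in dgk1 against WT, and 1 to 2 present in dgk1 and absent in WT (2 without WT replicate 2). In the same way it gave 21 to 24 higher and 10 to 13 lower in OE2 against WT. Depth limits the low members: a value of 0 is no fragment at 8908397 to 12459460 fragments per library.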
